A study of Mus musculus with 16 samples.

Results

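Replication-dependent histone genes are the clustered genes that supply the histone proteins for newly copied DNA. Genes were taken by name: every protein-coding gene of the count table whose GENCODE M21 mouse symbol begins with Hist1h, Hist2h, Hist3h or Hist4h. No gene of the table was added or left out for its measured values, but the family itself was chosen with earlier results known. The name rule gave 57 genes of 21804 in the table (0.261%), from 67 such genes in the annotation, of which 10 were not analysed here. By cluster, 45 of the 57 belonged to Hist1 on chromosome 13, 9 to Hist2 on chromosome 3, 2 to Hist3 on chromosome 11 and 1 to Hist4 on chromosome 6. By product, 6 encoded linker histone H1, 14 encoded H2A, 15 encoded H2B, 11 encoded H3 and 11 encoded H4. The 16 genes with a mean of 10 or more counts over all libraries are described gene by gene, and the 41 under that mean are described by ranges and counts. The lowest means inside that limit were 10.2 counts for Hist1h4c and 12.9 for Hist2h4, and the highest outside it were 9.61 for Hist1h2bg and 8.02 for Hist1h3d.

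The study compared brain tissue of C57BL/6 mice aged 4 months that carried either 1 copy (ret/wt, the controls) or 2 copies (ret/ret) of the Pdgfb retention allele. That allele lacks the stretch of the growth factor PDGF-B that keeps it close to the endothelial cells that secrete it, and pericytes are reduced in ret/ret animals. Each of 8 animals, 4 per genotype, gave 1 cortex and 1 thalamus library, which gave 4 groups of 4 libraries. For ret/ret thalamus, the labels describe the samples as vessel calcifications cut out of the brain under a fluorescence stereomicroscope, with tissue of the matching region from ret/wt animals, and cortex was taken from both genotypes as a region without calcification. In the thalamus the genotype and the kind of tissue cut out therefore cannot be told apart. No wild-type animals were among the groups, so every library came from a carrier of the retention allele.

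The core histones H2A, H2B, H3 and H4 form the protein spool around which DNA winds, and H1 binds the linker DNA between spools. Most of their messenger RNAs are made while DNA is being copied, and they are unusual in having no polyA tail: the RNA ends just after a short stem-loop, which the stem-loop binding protein SLBP recognises. Several of these genes can also give longer transcripts with a polyA tail, and these are known from cells that no longer divide. The libraries were polyA-selected per the labels, so RNAs that end at the stem-loop are poorly captured by this method, and a level given here is that of the RNA that passed the selection.

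The stem-loop stretch is shown for members that carry the results below, because it marks where the tail-less form of each RNA ends. Capitals mark a 16-base word, with 5 bases on either side. Among words of that length whose 2 ends are reverse complements, it is the most frequent in the members within 100 bases after the stop codon. The sequences are from the GENCODE M21 transcripts (GRCm38), given 5′ to 3′ as DNA letters, and the coordinates are those of the capitals.
Hist1h1c, chr13:23739512-23739527, plus strand: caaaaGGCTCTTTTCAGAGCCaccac
Hist1h1e, chr13:23621782-23621797, minus strand: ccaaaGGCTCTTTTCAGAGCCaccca
Hist1h2be, chr13:23585531-23585546, minus strand: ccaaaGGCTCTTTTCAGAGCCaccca
Hist1h2ac, chr13:23683477-23683492, minus strand: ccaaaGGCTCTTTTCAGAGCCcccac
Hist2h2aa1, chr3:96246032-96246047, plus strand: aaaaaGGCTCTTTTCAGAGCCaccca
Hist2h3c1, chr3:96247327-96247342, plus strand: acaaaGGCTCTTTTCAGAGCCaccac
Hist3h2a, chr11:58955172-58955187, plus strand: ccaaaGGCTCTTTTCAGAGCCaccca
Hist1h4h, chr13:23531458-23531473, plus strand: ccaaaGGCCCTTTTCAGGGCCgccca
The first 7 hold the same word, and Hist1h4h, an H4 gene, differs from it at 2 bases. The first and last bases of the word, which the choice of word required to be reverse complements of each other, form the stem. Taking any coding transcript of a gene, 48 of the 57 members have an annotated stretch of at least 16 bases after the stop codon. Of these, 25 held the word exactly and 37 held it with up to 2 mismatches. Outside the members, 6 of 20920 genes (0.0287%) held it in the same way. In the longest coding transcript alone, which is described next, 24 members held it exactly and 36 with up to 2 mismatches.

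Among the 16 genes above the count limit, the stem-loop word was present in 12, and in 9 of those 12 the annotated transcript went on for more than 100 bases after it. In Hist1h1c 840 bases followed the word, in Hist1h2be 1861, in Hist3h2a 1643, in Hist1h1e 1153, in Hist1h2ac 2010, and in Hist2h2aa1 35. A polyA signal, AATAAA or ATTAAA on the transcript strand, lay in the last 50 bases of 9 of the 16. The median transcript length was 1358 bases in these 16 genes and 530 bases in the 41 others, of which 24 held the word and 10 ran more than 100 bases past it. These are properties of the annotation, and the gene-level counts do not say which form of an RNA was read.

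**Figure D1:**
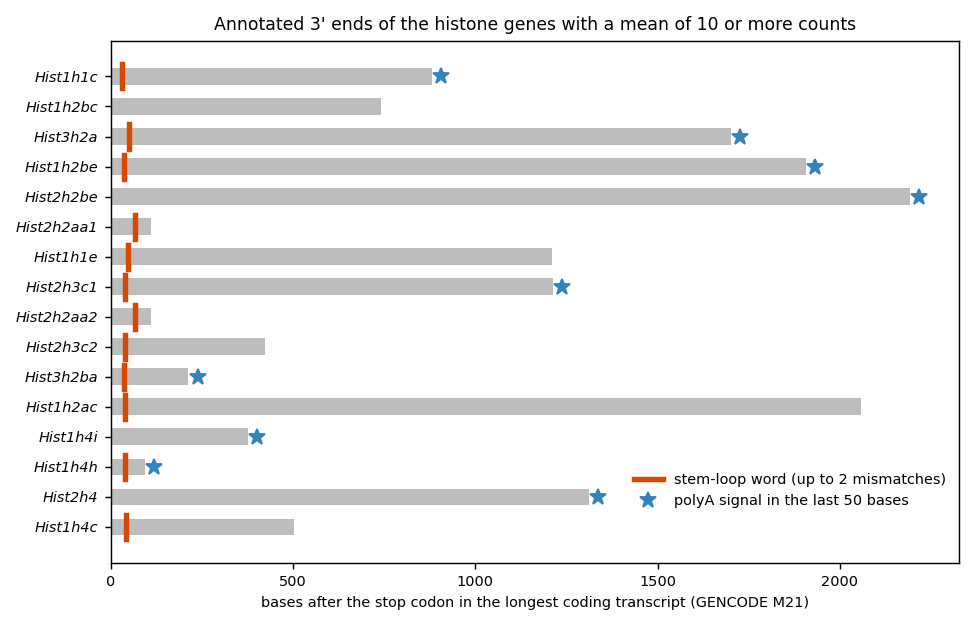
Annotated 3′ ends of the 16 histone genes with a mean of 10 or more counts. Grey bars give the bases after the stop codon in the longest coding transcript, orange ticks the stem-loop word with up to 2 mismatches (12 genes), and blue stars a polyA signal in the last 50 bases (9 genes). The ticks sit near the stop codon and the longest bars extend far past them.

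Upstream of the start, the members share other short motifs. Of the 52 members found in the RefSeq promoter table (GRCm38.p6, 250 bases before to 50 after the start), 45 held CCAAT on either strand, against 37.9% of all 27025 promoters of that length. TATAAA was held by 28 of 52, against 14.2% of all promoters. TTTGCAT, an octamer-like motif, was held by 10 of 52, against 4.59%, with 5 of these among the H2A and 4 among the H2B genes. CCAAT was held by 3 of the 10 H4 promoters. The 250 bases upstream of Hist1h2ac and Hist1h1c are printed because both genes were among the members with high values in ret/ret, and because the first window also reaches the divergent start of Hist1h2bc, at position 23684199 on the plus strand. Capitals mark the motifs above on either strand, and the motifs do not overlap each other in these windows.
Hist1h2ac, chr13:23683960-23684209, minus strand: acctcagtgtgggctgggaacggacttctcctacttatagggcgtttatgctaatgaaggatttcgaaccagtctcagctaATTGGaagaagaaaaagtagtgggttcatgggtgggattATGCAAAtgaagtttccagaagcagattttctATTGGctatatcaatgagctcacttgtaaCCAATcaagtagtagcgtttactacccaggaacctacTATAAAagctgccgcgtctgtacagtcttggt
Hist1h1c, chr13:23738557-23738806, plus strand: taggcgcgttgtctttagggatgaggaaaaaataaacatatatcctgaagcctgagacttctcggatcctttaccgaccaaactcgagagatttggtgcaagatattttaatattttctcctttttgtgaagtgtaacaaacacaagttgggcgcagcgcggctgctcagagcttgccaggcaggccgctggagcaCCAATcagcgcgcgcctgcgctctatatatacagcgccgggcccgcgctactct
The Hist1h2ac window holds 3 matches to CCAAT, 1 to TATAAA and 1 to TTTGCAT, and the Hist1h1c window holds 1 match to CCAAT. A match is a run of letters and not a measured binding site.

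Library totals ran from 13415391 to 29135064 counts. Levels are given in CPM, which scales each count to its library's total, with TMM factors over all 16 libraries, and 3 counts, the floor for detection used here, corresponded to 0.103 to 0.224 CPM. This floor covers counting error only. Nothing in the labels says that libraries were made in batches. Libraries of 2 animals, ret/wt replicate 3 and ret/ret replicate 2, stood apart: their 4 Y-linked genes summed to 111.5 to 172.4 CPM, against 1.88 to 5.18 CPM in the other 6 animals, and their cortex libraries held 2062 and 4921 CPM of 10 cerebellar markers, against 73.5 to 124.7 CPM in the other cortex libraries. The ret/wt cortex library of replicate 4 held 1135 CPM of 8 choroid plexus markers, against 10.1 to 69.1 CPM in the other cortex libraries. Mitochondrial genes took 3.22% to 12.1% of the counts. Counts without those 2 animals are given beside the main counts.

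The 57 genes together were a small but unequal part of the RNA. A few genes carried most of it. Hist1h1c, an H1 gene, took 23.2% of the summed CPM over all libraries, Hist1h2bc, an H2B gene, 19.1%, Hist3h2a, an H2A gene, 15.1%, Hist1h2be, an H2B gene, 10.7% and Hist2h2be, also H2B, 8.32%. The 16 genes above the count limit held 97.1%. Of the other 41, 27 had a mean under 1 count and 22 had no library above 3 counts. By class, H2B genes held 41.0% of the summed CPM, H1 26.4%, H2A 23.2%, H3 5.03% and H4 4.30%, pooled over all libraries. The order of H1 and H2A differed between groups: H1 genes summed to a mean of 11.8 CPM and H2A genes to 23.5 CPM in ret/wt cortex, to 37.45 and 36.5 CPM in ret/ret cortex, to 26.05 and 24.6 CPM in ret/wt thalamus, and to 64.2 and 38.1 CPM in ret/ret thalamus. CPM also depends on transcript length.

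Per kilobase of the longest annotated coding transcript, the order of the genes differed. Hist1h2bc stood highest with a mean of 21.8 CPM per kb over the 16 libraries, followed by Hist1h1c at 19.7, Hist3h2a at 9.27 and Hist2h2aa1 at 8.33 CPM per kb. Hist2h2aa2 followed at 6.04, Hist1h2be at 5.65, Hist2h2be at 4.19 and Hist3h2ba at 4.18 CPM per kb. The H4 genes Hist1h4i and Hist1h4h, with short transcripts, had 2.70 and 2.50 CPM per kb, close to the H3 gene Hist2h3c2 at 2.56. The remaining 5 of the 16 lay between 0.406 CPM per kb in Hist2h4 and 1.995 in Hist1h1e. Of the 15 pairs of neighbours in this order, 9 had ranges over libraries that overlapped in all 4 groups, from Hist3h2a down to Hist2h3c2 among them. Hist1h2bc and Hist1h1c overlapped in 3 groups and were apart in ret/wt cortex, and Hist1h1c and Hist3h2a were apart in both ret/ret groups.

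The summed level of the 57 genes was higher in ret/ret than in ret/wt in the means of both regions. In the cortex the 4 ret/wt libraries (replicates 1 to 4) summed to 63.2, 73.7, 59.3 and 94.7 CPM, and the 4 ret/ret libraries to 200.8, 141.3, 108.5 and 140.4 CPM. In the thalamus the ret/wt libraries summed to 87.9, 81.4, 87.9 and 151.8 CPM, and the ret/ret libraries to 326.8, 136.2, 181.4 and 178.0 CPM. The cortex groups did not overlap, and the thalamus groups overlapped through ret/wt replicate 4, which stood above ret/ret replicate 2. The means were 72.7 ± 15.8 and 147.7 ± 38.5 CPM in cortex and 102.2 ± 33.2 and 205.6 ± 83.4 CPM in thalamus (SD, n = 4 each). Replicate 1 was the highest ret/ret library and replicate 4 the highest ret/wt library in both regions. In bulk tissue, more cells of a type and more RNA per cell cannot be told apart.

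The same order of means was seen in each of the 5 protein classes. H1 genes summed to 11.8 ± 3.29 CPM in ret/wt and 37.45 ± 17.2 CPM in ret/ret cortex, and to 26.05 ± 11.5 and 64.2 ± 31.8 CPM in thalamus (SD, n = 4). H2B genes summed to 30.8 ± 3.96 and 59.0 ± 13.1 CPM in cortex and 44.1 ± 15.5 and 82.8 ± 29.9 CPM in thalamus (SD, n = 4). H4 genes, which are few reads in all, summed to 1.97 to 3.82 CPM in ret/wt and 5.58 to 6.30 CPM in ret/ret cortex, and to 1.67 to 5.24 and 7.53 to 18.2 CPM in thalamus. The H4 sums did not overlap between genotypes in either region. By cluster the picture was uneven: Hist1 genes had means of 35.3 and 91.1 CPM in cortex and 62.4 and 145.1 CPM in thalamus, while the 2 Hist3 genes had 20.97 ± 6.22 and 27.3 ± 7.15 CPM in cortex and 20.9 ± 3.49 and 20.65 ± 4.40 CPM in thalamus (SD, n = 4).

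**Figure D2:**
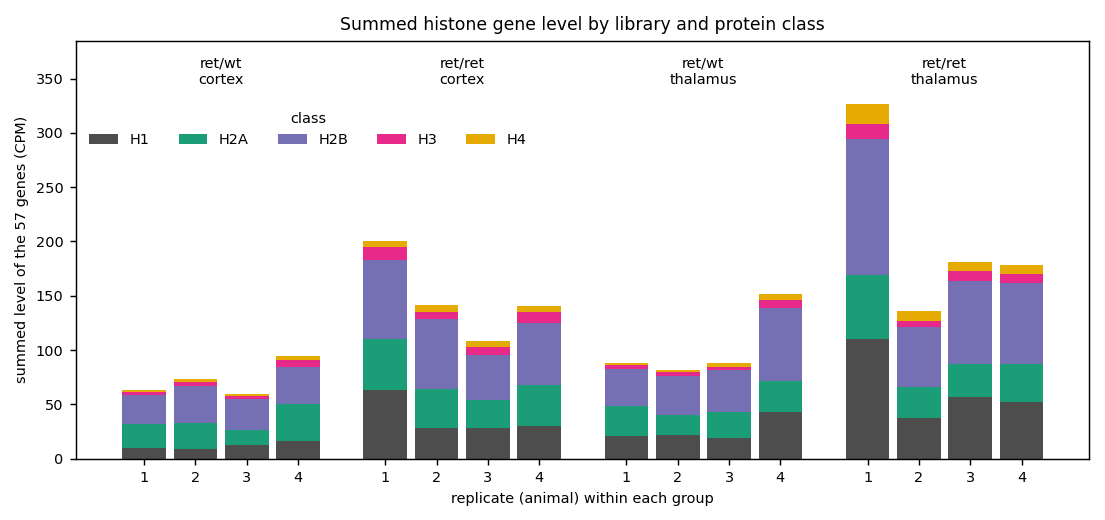
Summed level of the 57 histone genes in CPM, for each of the 16 libraries, stacked by protein class. Bars are single libraries, ordered by replicate within group. The ret/ret cortex bars (108.5 to 200.8 CPM) all stand above the ret/wt cortex bars (59.3 to 94.7 CPM), while ret/wt thalamus replicate 4 (151.8 CPM) stands above 1 ret/ret thalamus bar (136.2 CPM).

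The linker histone gene Hist1h1c had the highest CPM of the members when averaged over all 16 libraries, but not in ret/wt cortex, where its mean of 10.9 CPM was below those of Hist3h2a (18.6) and Hist1h2bc (14.6). In cortex it was at 8.91, 8.19, 11.3 and 15.1 CPM in the ret/wt libraries and at 52.4, 26.1, 23.3 and 26.0 CPM in the ret/ret libraries. In thalamus it was at 19.0, 19.1, 16.2 and 40.1 CPM in ret/wt and at 96.9, 31.6, 51.0 and 45.6 CPM in ret/ret. The cortex groups did not overlap, and in thalamus ret/wt replicate 4 was above ret/ret replicate 2. The log2 fold change was 1.56 ± 0.32 (SE) in cortex and 1.27 ± 0.40 (SE) in thalamus, with adjusted p of 0.476 and 1 in edgeR (quasi-likelihood, Benjamini-Hochberg) over all genes tested. Without ret/ret replicate 1 the log2 values were 1.21 and 0.86.

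Hist1h1e, also a linker histone gene, had lower levels and larger fold values. Its ret/wt libraries were at 0.469, 1.01, 1.11 and 0.915 CPM in cortex and 1.55, 1.93, 2.17 and 3.01 CPM in thalamus. Its ret/ret libraries were at 9.54, 2.24, 4.75 and 3.57 CPM in cortex and 12.3, 5.56, 5.48 and 6.05 CPM in thalamus. The genotypes did not overlap in either region. The log2 fold change was 2.50 ± 0.51 (SE) in cortex and 1.78 ± 0.39 (SE) in thalamus, with adjusted p of 0.476 and 0.687 in edgeR (quasi-likelihood, Benjamini-Hochberg). Annotated exons of Hist1h1e overlap those of Hist1h2be and Gm11398 on the same strand. Of the 31-base words of Hist1h1e transcripts, 34.7% also occur in another gene, with 24.5% in Hist1h2be and 15.3% in Gm11398. Reads could therefore be divided between these genes in more than 1 way.

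Hist1h2be and Hist1h2bc both encode H2B. Of the 31-base words of Hist1h2be transcripts, 18.2% occur in another gene, with 10.5% in Hist1h1e. Hist1h2be was at 5.09 to 7.37 CPM in the 4 ret/wt and 12.8 to 23.1 CPM in the 4 ret/ret cortex libraries, and at 6.35, 8.34, 9.52 and 17.0 CPM in ret/wt and 37.0, 15.2, 23.2 and 19.6 CPM in ret/ret thalamus. The cortex groups did not overlap, and the thalamus groups overlapped through ret/wt replicate 4. The log2 fold change was 1.43 ± 0.25 (SE) in cortex, the smallest adjusted p among members there (0.287 by edgeR (quasi-likelihood, Benjamini-Hochberg)), and 1.22 ± 0.37 (SE) in thalamus.

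Of the 31-base words of Hist1h2bc, 32.6% occur in another gene, with 26.1% in Hist1h2br. Hist1h2bc was at 11.8, 17.8, 13.5 and 15.4 CPM in ret/wt and 33.2, 28.7, 18.02 and 24.3 CPM in ret/ret cortex. In thalamus it was at 17.1, 15.96, 19.3 and 33.6 CPM in ret/wt and 58.1, 25.4, 31.7 and 38.5 CPM in ret/ret. In cortex the lowest ret/ret library, replicate 3, lay just above the highest ret/wt library, and the thalamus groups overlapped. The log2 fold change was 0.84 ± 0.23 (SE) in cortex and 0.85 ± 0.33 (SE) in thalamus, with adjusted p of 0.816 and 1 in edgeR (quasi-likelihood, Benjamini-Hochberg).

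Hist3h2a, an H2A gene outside the large clusters, had the smallest fold values in size among the 5 members with the most counts. It was at 17.98, 17.8, 12.5 and 26.1 CPM in ret/wt and 31.2, 22.6, 16.5 and 25.6 CPM in ret/ret cortex. In thalamus it was at 22.5, 14.3, 19.0 and 20.8 CPM in ret/wt and 23.9, 15.2, 16.1 and 16.4 CPM in ret/ret. The groups overlapped in both regions. The log2 fold change was 0.38 ± 0.27 (SE) in cortex and -0.07 ± 0.23 (SE) in thalamus, and the thalamus value was 0.0014 without ret/wt replicate 1, so it had no stable sign. Its exons overlap those of Trim17 on the same strand, and 32.1% of its 31-base words occur in another gene.

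**Figure D3:**
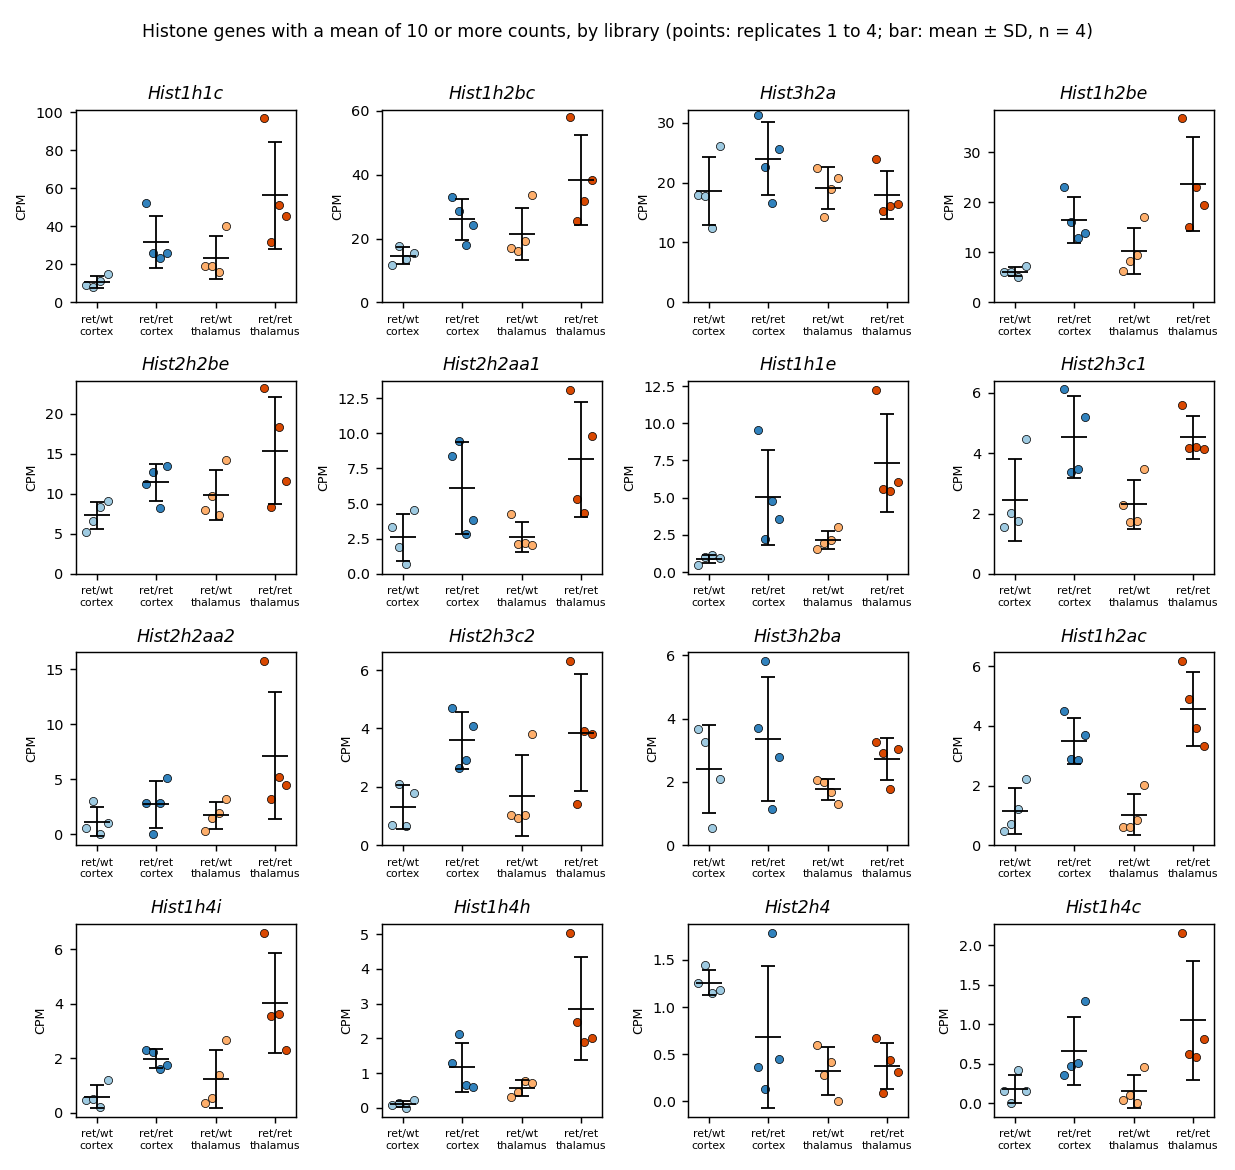
Level in CPM of each of the 16 histone genes with a mean of 10 or more counts. Points are libraries (replicates 1 to 4 from left to right), and bars give the mean ± SD (n = 4) for each group. Hist1h1e lies between 0.469 and 3.01 CPM in ret/wt and between 2.24 and 12.3 CPM in ret/ret, while Hist3h2a overlaps between genotypes in both regions.

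Among the H2A genes, Hist1h2ac was at 0.601, 0.608, 0.844 and 2.03 CPM in ret/wt and at 6.17, 4.89, 3.91 and 3.33 CPM in ret/ret thalamus. In cortex it was at 0.469, 0.724, 1.20 and 2.21 CPM in ret/wt and at 4.48, 2.89, 2.85 and 3.70 CPM in ret/ret. Neither region showed an overlap between genotypes, and ret/wt replicate 4 was the highest ret/wt library in both. Hist1h2ac and Hist1h2bc start on opposite strands from the region printed above. Their thalamus group means were 1.02 and 4.58 CPM for Hist1h2ac and 21.5 and 38.4 CPM for Hist1h2bc.

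Hist2h2aa1 and Hist2h2aa2 are near-identical H2A genes in the Hist2 cluster, and all of the 31-base words of Hist2h2aa2 also occur in Hist2h2aa1. Of the words of Hist2h2aa1, 89.7% also occur in Gm20634, whose exons overlap it on the same strand. Reads of these genes therefore cannot be assigned with certainty. Hist2h2aa1 was at 4.25, 2.15, 2.17 and 2.03 CPM in ret/wt and 13.1, 5.34, 4.35 and 9.79 CPM in ret/ret thalamus, without overlap. Hist2h2aa2 was at 0.3, 1.49, 1.93 and 3.21 CPM in ret/wt and 15.7, 3.19, 5.18 and 4.51 CPM in ret/ret thalamus, overlapping at ret/ret replicate 2. In cortex both overlapped between genotypes, and Hist2h2aa2 had libraries at 0 counts in both.

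The remaining H2B genes, Hist2h2be and Hist3h2ba, overlapped between genotypes in both regions. Hist2h2be had group means of 7.31 ± 1.73 and 11.4 ± 2.30 CPM in cortex and 9.84 ± 3.09 and 15.4 ± 6.67 CPM in thalamus (SD, n = 4). Hist3h2ba had 2.40 ± 1.40 and 3.36 ± 1.96 CPM in cortex and 1.76 ± 0.341 and 2.74 ± 0.664 CPM in thalamus (SD, n = 4), so the difference in cortex was within 1 SD of each group. Of its 31-base words, 37.2% occur in another gene.

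The H3 genes above the count limit were Hist2h3c1 and Hist2h3c2. Hist2h3c1 was at 2.27, 1.71, 1.75 and 3.47 CPM in ret/wt and 5.59, 4.17, 4.21 and 4.15 CPM in ret/ret thalamus, without overlap, while its cortex groups overlapped through ret/wt replicate 4. Hist2h3c2 was at 0.704, 2.10, 0.642 and 1.78 CPM in ret/wt and 4.70, 2.63, 2.92 and 4.09 CPM in ret/ret cortex, without overlap, while its thalamus groups overlapped. Of the 31-base words of Hist2h3c2, 64.2% occur in Hist2h3c1, and all words of Hist2h3c1 occur in Gm20634, a gene with exons over it on the same strand.

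The H4 genes had few reads. Hist1h4h had 1, 2, 0 and 4 counts in ret/wt and 18, 49, 18 and 9 counts in ret/ret cortex. In thalamus it had 7, 8, 13 and 11 counts in ret/wt and 112, 55, 39 and 39 counts in ret/ret. The genotypes did not overlap in either region. For cortex, where the gene was not tested because it missed the filter on low counts, the ratio of the summed counts per group total was 11.8, with a 95% counting interval of 5.51 to 30.2 that leaves out the spread between animals.

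Hist1h4i had group means of 0.593 ± 0.414 and 1.98 ± 0.352 CPM in cortex, without overlap, and 1.24 ± 1.06 and 4.02 ± 1.84 CPM in thalamus (SD, n = 4), with overlap. Of its 31-base words, 35.3% occur in another gene. Hist1h4c was at 0.0429, 0.111, 0 and 0.459 CPM in ret/wt and 2.16, 0.628, 0.587 and 0.82 CPM in ret/ret thalamus. Its thalamus groups did not overlap, but the ret/wt values were at or near the floor. Hist2h4 went the other way in its cortex means, but not in thalamus, where they were 0.325 CPM in ret/wt and 0.378 CPM in ret/ret. Its cortex libraries were at 1.25, 1.45, 1.16 and 1.18 CPM in ret/wt and at 0.361, 0.129, 1.79 and 0.454 CPM in ret/ret. There 3 of the 4 ret/ret libraries were below all ret/wt libraries and replicate 3 was above them. Its log2 fold change in cortex was -0.83 ± 0.67 (SE).

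A pair of genes just under the count limit, Hist1h2bg (H2B) and Hist1h4j (H4), had the smallest p among members in the thalamus. Hist1h2bg had 2, 2, 1 and 1 counts in the ret/wt and 28, 37, 13 and 27 counts in the ret/ret thalamus libraries. Hist1h4j had 2, 2, 2 and 0 counts in ret/wt and 24, 15, 23 and 14 counts in ret/ret. No library of one genotype reached the other in either gene. The ratio of summed counts per group total was 15.1 for Hist1h2bg (95% counting interval 6.71 to 42.1) and 10.9 for Hist1h4j (4.797 to 30.7), exact conditional intervals that cover counting error only. The adjusted p in edgeR (quasi-likelihood, Benjamini-Hochberg) was 0.216 for Hist1h2bg, equal to the smallest of any gene in the thalamus comparison, and 0.525 for Hist1h4j. Both genes passed the filter on low counts only through their ret/ret libraries. Of the 31-base words of Hist1h2bg, 56.3% occur in another gene, with 46.8% in Hist1h2bc. Of those of Hist1h4j 29.4% do, with 26.5% in Hist1h4h. Counts of both genes therefore depend on how shared reads were assigned. In cortex Hist1h2bg had 0, 2, 2 and 0 counts in ret/wt and 6, 17, 11 and 4 counts in ret/ret.

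The 41 genes under the limit, taken as a sum, were at 0.547 to 1.83 CPM in ret/wt and 3.71 to 5.42 CPM in ret/ret cortex. In thalamus they were at 1.59 to 3.28 CPM in ret/wt and 5.72 to 10.8 CPM in ret/ret. The genotypes did not overlap in either sum. In cortex 23 of the 41 were at 0 counts in all 4 ret/wt libraries and 10 in all 4 ret/ret libraries, at group totals of 71064135 and 80846888 counts. In thalamus 14 were at 0 in all ret/wt and 9 in all ret/ret libraries, at group totals of 71280852 and 82593867 counts. In 29 of the 41, more than 50% of the 31-base words occurred in another gene, Hist1h2bg among them, so counts of these single genes are uncertain.

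Counted over all 57 genes with no filter on low values, the mean of ret/ret was above the mean of ret/wt in 46 genes in the thalamus, below it in 5, and 6 were at 0 in both groups. In the cortex 44 were above, 6 below and 7 at 0 in both. Of the 16 genes above the count limit, 15 were above and 1 below in each region. The gene below was Hist3h2a in thalamus and Hist2h4 in cortex. Both regions came from the same 8 animals, so these are not independent counts.

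No member passed an adjusted p of 0.05 in the thalamus by edgeR (quasi-likelihood, Benjamini-Hochberg) over 14767 genes, and neither did any other gene (0%). Of the 57 members, 17 passed the filter on low counts in this comparison, 15 of them among the 16 above the count limit. At an unadjusted p under 0.05, 13 of the 17 were higher in ret/ret, against 3.05% of all genes tested, and 0 were lower, against 0.88%. Among the 15 above the count limit 11 were, and their median log2 fold change was 1.27, with a range of -0.07 to 2.82, beside a median of -0.02 over all genes tested. The groups did not overlap in 8 of the 17, against 1.86% of all genes in that direction: Hist1h1e, Hist1h2ac, Hist2h2aa1, Hist2h3c1, Hist1h4h, Hist1h4c, Hist1h2bg and Hist1h4j. Genes that passed the filter through 1 genotype alone, such as Hist1h2bg, Hist1h4j and Hist1h4c, had to differ. Hist1h4h, at 7, 8, 13 and 11 counts in ret/wt, also needed ret/ret libraries to pass. The shares here are therefore not evidence in themselves. DESeq2, run as an alternative, gave 5 members an adjusted p under 0.05, all higher, against 0.218% of genes tested: Hist1h1e, Hist1h2ac, Hist1h2bg, Hist1h4h and Hist1h4j. The limma-voom alternative called 0 members.

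In the cortex no member passed an adjusted p of 0.05 in edgeR (quasi-likelihood, Benjamini-Hochberg), while 3 of 14288 genes did (0.021%). Of the 14 members that passed the filter, all among the 16 above the count limit, 8 had an unadjusted p under 0.05 with ret/ret higher, against 2.62% of all genes tested, and 0 were lower, against 1.14%. The median log2 fold change of the 14 was 1.25, with a range of -0.83 to 2.50, beside 0.01 over all genes. The groups did not overlap in 7 of the 14, against 1.76% of all genes in that direction: Hist1h2be, Hist1h1c, Hist1h1e, Hist1h2bc, Hist1h4i, Hist1h2ac and Hist2h3c2. Hist1h4i, at 6, 7, 5 and 22 counts in ret/wt, passed the filter on low counts through its ret/ret libraries. Hist1h1e and Hist1h2ac, each at 6 counts in ret/wt replicate 1, also needed ret/ret libraries to pass. These shares are therefore not evidence in themselves. DESeq2 gave 3 members an adjusted p under 0.05, Hist1h2be, Hist1h1c and Hist1h1e, all higher, against 0.252% of genes tested, and limma-voom called 0.

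Without ret/wt replicate 3 and ret/ret replicate 2, the animals that stood apart, 12 of 18 members tested were higher at an unadjusted p under 0.05 in thalamus and 7 of 14 in cortex by edgeR's test, against 2.98% and 2.75% of all genes. Without ret/ret replicate 1 the counts were 10 of 17 and 8 of 15, against 1.75% and 2.6% of all genes. Without ret/wt replicate 4 they were 16 of 18 and 10 of 14, against 6.06% and 2.14%. Of the 16 genes above the count limit, 6 had groups without overlap in the thalamus with all libraries, against 1.86% of all genes, and 12 did without ret/wt replicate 4, where the share of all genes was 5.57%.

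To give the low members more reads, the cortex and thalamus counts of each animal were summed, which left 4 animals against 4. All 16 genes above the count limit passed the filter, and 21 members in all. No member passed an adjusted p of 0.05, while 2 of 15505 genes did (0.0129%), and the smallest adjusted p of a member was 0.132, for Hist1h2bg, in edgeR (quasi-likelihood, Benjamini-Hochberg). At an unadjusted p under 0.05, 16 of the 21 were higher in ret/ret, against 3.62% of all genes tested, and 0 were lower, against 1.51%. Of the 16 above the count limit 13 were. Here too, members such as Hist1h2bg, Hist1h4j, Hist1h3d and Hist1h4c, which were near the floor in ret/wt, passed the filter through ret/ret and had to differ. Hist1h4h, at 1, 2, 0 and 4 cortex and 7, 8, 13 and 11 thalamus counts in ret/wt, also needed ret/ret animals to pass. The median log2 fold change of the 16 genes above the count limit was 1.37, with a range of -0.47 to 2.69, beside -0.02 over all genes. Animals did not overlap between genotypes in 11 of the 21, against 2.77% of all genes in that direction.

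Among single genes in the per-animal sums, Hist1h4h had a mean of 0.322 ± 0.0863 CPM in ret/wt and 2.15 ± 1.11 CPM in ret/ret animals (SD, n = 4) and a log2 fold change of 2.69 ± 0.46 (SE). Hist1h1e had 1.51 ± 0.269 and 6.36 ± 3.33 CPM (SD, n = 4) and a log2 fold change of 2.03 ± 0.37 (SE). Neither gene overlapped between genotypes, and the adjusted p was 0.229 for Hist1h4h and 0.245 for Hist1h1e in edgeR (quasi-likelihood, Benjamini-Hochberg). Hist1h1c had 17.1 ± 5.72 and 45.8 ± 23.3 CPM, also without overlap, and Hist3h2a had 18.6 ± 3.85 and 20.9 ± 4.33 CPM, with overlap (SD, n = 4). DESeq2 gave 7 members an adjusted p under 0.05 in the per-animal sums, all higher, against 0.46% of genes tested: Hist1h1c, Hist1h1e, Hist1h2ac, Hist1h2be, Hist1h2bg, Hist1h4h and Hist1h4j. With limma-voom 0 were called.

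**Figure D4:**
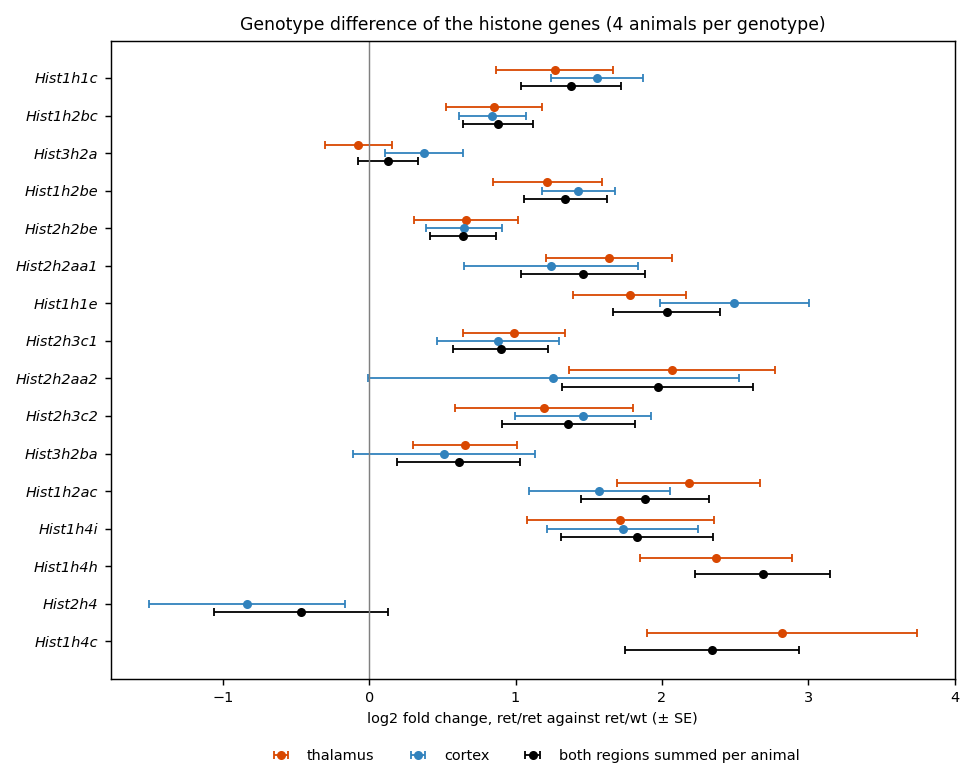
Log2 fold change of ret/ret against ret/wt with its SE for the 16 histone genes with a mean of 10 or more counts, from edgeR's fits in thalamus, cortex and the per-animal sums (4 animals per genotype). A missing point is a gene that did not pass the filter on low counts in that fit. Most points lie to the right of 0, with medians of 1.27 in thalamus and 1.25 in cortex. The points to its left are Hist3h2a in thalamus (-0.07) and Hist2h4 in cortex (-0.83) and per animal (-0.47).

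Between regions, most members overlapped within a genotype. In ret/ret no member passed an adjusted p of 0.05 in edgeR's test between thalamus and cortex, while 1398 of 14715 genes did (9.5%). Of 18 members tested, 4 were higher in the thalamus at an unadjusted p under 0.05, against 12.1% of all genes, and 0 were lower, against 14.6%. The regions did not overlap in 1 of the 18, Hist1h4j, which was higher in thalamus, against 8.87% of genes higher and 8.7% lower. DESeq2 called 0 members there, against 8.17% of genes higher in thalamus. The smallest p were those of Hist1h2bg (log2 difference 1.39 ± 0.50, SE), Hist1h4i (1.004 ± 0.39, SE) and Hist1h4j (1.07 ± 0.44, SE), with adjusted p of 0.111 to 0.153 by edgeR (quasi-likelihood, Benjamini-Hochberg). Hist1h2bg had 6, 17, 11 and 4 counts in ret/ret cortex, and Hist1h4j had 5, 11, 9 and 8. Both needed their thalamus libraries to pass the filter on low counts, so the shares above are not evidence in themselves. Without ret/ret cortex replicate 4, 0 of 19 members were left at an unadjusted p under 0.05 by edgeR's test, against 9.8% of all genes higher. Without ret/ret thalamus replicate 2, 8 of 19 were higher, against 14.2% of all genes.

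In ret/wt animals Hist1h1c was the member nearest to a call between regions, with group means of 10.9 ± 3.12 CPM in cortex and 23.6 ± 11.1 CPM in thalamus (SD, n = 4) and no overlap. Its log2 difference was 1.11 ± 0.34 (SE), and its adjusted p was 0.0562 by edgeR (quasi-likelihood, Benjamini-Hochberg). With the animal as a block, which pairs the 2 regions of each animal, the value was 1.05 ± 0.24 (SE) with an adjusted p of 0.035, so that Hist1h1c passed. Over the alternatives tried, its adjusted p ran from 0.0133 to 0.149. Hist1h1e (1.27 ± 0.42, SE) and Hist2h4 (-1.90 ± 0.67, SE) had adjusted p of 0.0777 and 0.0954 in the same edgeR quasi-likelihood test. Of 14 members tested, 0 were called without the block, against 12.6% of 14442 genes, and 3 were higher and 1 lower at an unadjusted p under 0.05, against 13% and 14% of all genes. The regions did not overlap in 2 members higher in thalamus, Hist1h1c and Hist1h1e, and 1 lower, Hist2h4, against 9.58% and 10.4% of all genes. Hist2h4, at 14, 5, 7 and 0 counts in ret/wt thalamus, passed the filter on low counts through its cortex libraries. Hist1h1e, at 6 counts in ret/wt cortex replicate 1, needed thalamus libraries to pass. For these 2 genes the lack of overlap is therefore not evidence in itself. DESeq2 called Hist1h1c higher, against 8.19% of genes.

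Whether the genotype difference itself differed between regions was tested as an interaction over all 16 libraries. None of 18 members tested, and no gene of 15286 (0%), passed an adjusted p of 0.05 in edgeR (quasi-likelihood, Benjamini-Hochberg), and DESeq2 called 0 members. At an unadjusted p under 0.05 the count was 0 members, against 1.60% of all genes. The median over the 16 genes above the count limit was 0.01 on the log2 scale, beside -0.04 over all genes, with a range of -1.04 to 1.10. The smallest p were those of Hist1h4j (2.02 ± 0.96, SE), Hist3h2a (-0.47 ± 0.35, SE) and Hist1h1e (-0.73 ± 0.61, SE), each with adjusted p at 1 by edgeR's quasi-likelihood F test.

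Other genes tied to histone supply are given next, from lists of textbook members. For scale, 3.05% of all genes tested were higher and 0.88% lower in thalamus at an unadjusted p under 0.05 by edgeR's test. In cortex 2.62% were higher and 1.14% lower. The median log2 fold change over all genes tested was -0.02 in thalamus and 0.01 in cortex. Replacement histones are made outside DNA copying from genes with ordinary polyA tails. Of 10 in the table, all were tested and 0 were at an unadjusted p under 0.05 in either region, with a median log2 fold change of 0.09 in thalamus and 0.21 in cortex. H3f3b and H3f3a, which encode the replacement form of H3 and had the highest levels of the list, had log2 values of 0.05 ± 0.21 and 0.15 ± 0.18 in thalamus and 0.25 ± 0.28 and 0.28 ± 0.26 in cortex (SE). The summed level of the list was 438.6 to 584.6 CPM in ret/wt and 481.7 to 827.9 CPM in ret/ret cortex, and 522.4 to 700.1 and 520.3 to 644.7 CPM in thalamus, with overlap in both regions.

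The 13 genes of histone mRNA synthesis and processing, among them Slbp and the cleavage scaffold Sympk, were all tested, and 0 were at an unadjusted p under 0.05 in either genotype comparison. Their median log2 fold change was -0.08 in thalamus and -0.05 in cortex, with -0.05 ± 0.15 and -0.26 ± 0.16 (SE) for Sympk and -0.10 ± 0.29 and -0.09 ± 0.19 (SE) for Cstf2, a cleavage stimulation factor. Slbp, named for its role, had -0.34 ± 0.20 in thalamus and 0.05 ± 0.24 in cortex (SE). The 12 histone chaperones, which carry histones to DNA, likewise had 0 at an unadjusted p under 0.05, with medians of -0.01 and 0.11. Ssrp1 and Supt16, the subunits of the FACT chaperone, had -0.20 ± 0.17 and -0.07 ± 0.15 in thalamus and -0.14 ± 0.14 and 0.13 ± 0.15 in cortex (SE).

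The 23 genes of S phase and cell division, which mark cells that copy their DNA, were summed to 116.3 to 156.9 CPM in ret/wt and 144.9 to 236.0 CPM in ret/ret cortex. In thalamus they summed to 134.5 to 159.0 CPM in ret/wt and 144.5 to 173.6 CPM in ret/ret. Both regions overlapped between genotypes. The highest cortex value, 236.0 CPM, was that of ret/ret replicate 2, the ret/ret library with cerebellar markers, while the highest histone sum in cortex was that of ret/ret replicate 1. In thalamus the highest S phase sums of each genotype, 173.6 CPM in ret/ret replicate 1 and 159.0 CPM in ret/wt replicate 4, were in the libraries with the highest histone sums. The part of these genes in the histone levels was not tested. Of the 22 tested in thalamus 1 was higher and 1 lower at an unadjusted p under 0.05 by edgeR's test, against 3.05% and 0.88% of all genes. Of the 19 tested in cortex 1 was higher and 0 lower, against 2.62% and 1.14%. The medians were 0.28 and 0.31 on the log2 scale, beside -0.02 and 0.01 over all genes. In thalamus 15 of the 22 were positive, and in cortex 16 of the 19. Pcna, the sliding clamp of DNA copying, had -0.03 ± 0.16 in thalamus and 0.20 ± 0.23 in cortex, and Rrm1, a ribonucleotide reductase subunit, had 0.05 ± 0.19 and 0.31 ± 0.26 (SE). A list of 18 RNAs that lack a polyA tail, written as a gauge of polyA selection, was not analysed here.

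**Figure D5:**
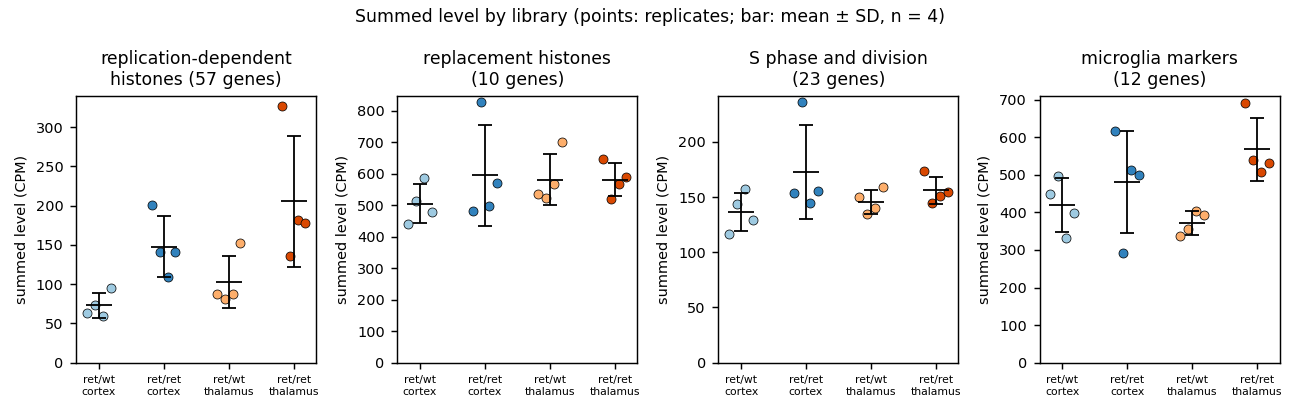
Summed level in CPM of the 57 histone genes, 10 replacement histones, 23 genes of S phase and division and 12 microglia markers. Points are libraries (replicates 1 to 4) and bars the mean ± SD (n = 4). In cortex the histone sums are 59.3 to 94.7 CPM in ret/wt and 108.5 to 200.8 CPM in ret/ret, without overlap. In thalamus they are 81.4 to 151.8 CPM in ret/wt and 136.2 to 326.8 CPM in ret/ret, with overlap. The replacement histones and the S phase genes overlap between genotypes in both regions.

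Markers of other cell types moved with the groups to different degrees. Microglia, the resident macrophages of the brain, were marked by 12 genes, none at 0 in all libraries, which summed to 336.3 to 403.1 CPM in ret/wt and 508.7 to 691.6 CPM in ret/ret thalamus. In thalamus all 12 had a positive log2 value, with a median of 0.63, beside -0.02 over all genes tested. Of the 12, 9 were higher at an unadjusted p under 0.05 by edgeR's test, against 3.05% of all genes. In cortex the microglia markers summed to 332.5 to 498.3 CPM in ret/wt and 292.8 to 615.9 CPM in ret/ret. Their cortex median was 0.11, with 11 of 12 positive, beside 0.01 over all genes. There 0 were at an unadjusted p under 0.05, against 2.62% of all genes higher and 1.14% lower. The 8 endothelium markers had a median log2 value of 0.39 in thalamus, with 8 of 8 positive, and of 0.50 in cortex, with 6 of 8 positive. They summed to 197.4 to 228.4 CPM in ret/wt and 181.9 to 431.8 CPM in ret/ret thalamus, and to 134.6 to 205.9 and 169.3 to 376.9 CPM in cortex. The 8 astrocyte markers had medians of 0.34 and 0.38, and summed to 2680 to 4668 CPM in ret/wt and 3526 to 4553 CPM in ret/ret thalamus, and to 5401 to 6204 and 6145 to 7645 CPM in cortex. The 9 pericyte markers had medians of -1.0 in thalamus (9 tested, 0 positive) and -0.61 in cortex (8 tested, 2 positive), and summed to 111.8 to 354.8 CPM in ret/wt and 68.0 to 236.8 CPM in ret/ret thalamus, and to 104.5 to 160.9 and 54.5 to 118.7 CPM in cortex. None of these markers was at 0 in all libraries. Ret/ret cortex replicate 2, the library with 4921 CPM of cerebellar markers, had a histone sum of 141.3 CPM, above all ret/wt cortex libraries. Its microglia sum was 292.8 CPM, the lowest of the 8 cortex libraries. Ret/ret thalamus replicate 1, with the highest histone sum (326.8 CPM), also had the highest sums of microglia (691.6 CPM), endothelium (431.8 CPM), blood (122.0 CPM) and immature neuron markers (408.6 CPM). Ret/ret cortex replicate 1, the highest cortex library for histones, had the highest cortex sums of microglia (615.9 CPM), endothelium (376.9 CPM), astrocyte (7645 CPM), oligodendrocyte progenitor (316.7 CPM) and blood markers (49.5 CPM). Ret/wt thalamus replicate 4, the highest ret/wt library for histones, had 354.8 CPM of the 9 pericyte markers, against 111.8 to 200.1 CPM in the other ret/wt thalamus libraries, and 221.3 CPM of immature neuron markers, against 113.8 to 123.1 CPM. The part of these cell types in the histone levels was not tested.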

How the data were processed

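RNA-seq of cortex and thalamus was deposited by the authors as estimated counts per gene, which are not whole numbers (0.0372% of nonzero values were whole within 1e-06). kallisto 0.44.0 and GRCm38.p6 are named in the submitters' processing notes. How transcripts were summed to genes is not given in the sources used here. Gene identifiers matched GENCODE M21 for 21612 of 21804 rows (99.1%).

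The counts were rounded and tested with edgeR 4.0.16 (quasi-likelihood, TMM factors, default filter on low counts, Benjamini-Hochberg adjustment over all genes tested) in R 4.3.3. Alternatives used DESeq2 1.42.0 and limma 3.58.1 (voom). Each comparison was fitted on its own groups, and the interaction on all 16 libraries. Tables and figures were made with Python 3.11.15, pandas 2.3.3, scipy 1.17.1 and matplotlib 3.10.9. The tests were checked on simulated data with a planted log2 change of 1.5 in either direction. At an adjusted p under 0.05, edgeR's test recovered 56% of the planted genes in thalamus and 68.5% in cortex. In the per-animal sums it recovered 68.2%. Between regions it recovered 53.1% in ret/ret and 53.5% in ret/wt, and in the interaction 15.1%. Replicates are separate animals per the labels, which also pair the 2 regions of each animal. Residual correlations of those pairs ran from -0.0171 to 0.239. Same-numbered animals of the 2 genotypes are different animals (-0.125 to 0.151).

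Every member with a mean of 10 or more counts was named. Fold changes were given for members with an adjusted p under 0.05, or else the 3 with the smallest p, for the 4 members with the highest mean CPM in the genotype comparisons, and for the 2 most abundant genes of each other list. Further genes were named after their values were seen. The members and lists were chosen with earlier results of these data known.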

Additional observations from a re-analysis of the deposited data

Results flagged for a closer look

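In 13 of 68 groups of 4 libraries, 1 library stood far from the other 3, judged by its gap to the nearest one as a share of the range (Dixon's test at its 95% value). Chance flags about 1 in 20 groups. In each of the 13 the library was high. Groups share libraries, so these are not independent.

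Ret/ret thalamus replicate 1 stood apart in Hist1h1e at 12.25 CPM (others 5.48 to 6.05), Hist2h3c1 at 5.586 CPM (4.15 to 4.21), Hist2h2aa2 at 15.72 CPM (3.19 to 5.18), Hist1h4c at 2.162 CPM (0.587 to 0.820) and Hist3h2a at 23.92 CPM (15.2 to 16.4). Ret/wt thalamus replicate 4 stood apart in Hist1h1c at 40.1 CPM (16.2 to 19.1), Hist1h2ac at 2.031 CPM (0.601 to 0.844), Hist2h3c2 at 3.8 CPM (0.939 to 1.03) and the sum of the 57 genes at 151.8 CPM (81.4 to 87.9). Ret/wt thalamus replicate 1 stood apart in Hist2h2aa1 at 4.248 CPM (2.03 to 2.17).

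In cortex, ret/ret replicate 1 stood apart in Hist1h1c at 52.4 CPM (23.3 to 26.1), ret/ret replicate 4 in Hist1h4c at 1.298 CPM (0.361 to 0.512) and ret/wt replicate 4 in Hist2h3c1 at 4.466 CPM (1.56 to 2.03).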

How the results depend on the processing

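Members called moved from 0 to 5 in thalamus, 3 in cortex and 7 in the per-animal sums with DESeq2, and stayed at 0 there with other scalings, filters, limma-voom and any library left out. Between regions in ret/wt, 1 member, Hist1h1c, was called with library size alone, upper quartile scaling, DESeq2 and the replicate block, and 0 to 1 when 1 library was left out. The block pairs regions within an animal and only same-numbered animals across genotypes. With it, members at an unadjusted p under 0.05 by edgeR's test numbered 12 of 17 in thalamus, 10 of 14 in cortex and 15 of 21 in the per-animal sums. The shares of all genes higher were 2.32%, 2.3% and 3.21%. Between regions 4 of 18 were higher and 1 lower in ret/ret, and 2 of 14 higher and 1 lower in ret/wt. There 12.7% and 12.2% of all genes were higher. The interaction had 0, against 0.955% of all genes higher, and the block changed no other call.

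Leaving out 1 library gave 10 to 16 members at an unadjusted p under 0.05 in thalamus, against 1.75% to 6.06% of all genes higher. The counts were 8 to 10 in cortex (1.92% to 3.42% of all genes) and 13 to 17 in the per-animal sums (2.58% to 5.2%). They were 0 to 8 between regions in ret/ret (9.51% to 15.3%) and 0 to 1 for the interaction (0.693% to 1.5%). Members without overlap in thalamus ran from 6 to 12 of the 16 above the count limit, against 2.42% to 5.57% of all genes. With no filter 18 of 50 members were at an unadjusted p under 0.05 in cortex by edgeR's test, against 2.33% of all genes. A minimum count of 30, which tests fewer genes, gave 2 of 14 in ret/ret and 2 of 8 in ret/wt between regions. The shares of all genes higher there were 13.6% and 13.7%. The interaction had 1 with DESeq2 size factors, with upper quartile scaling and without the 2 animals that stood apart. The shares of all genes higher were 0.922%, 0.916% and 1.55%. Summing members that share sequence, added after seeing the data as were the overlap counts, left fewer units and gave 8 of 11 in thalamus, 9 of 13 in the per-animal sums and 1 of 11 between regions in ret/ret. In the main fits 3.05%, 3.62% and 12.1% of all genes were higher at an unadjusted p under 0.05 by edgeR's test. With 1 library left out, Hist3h2a ran from -0.2533 to 0.0014 in thalamus and from -0.0057 to 0.2542 per animal, changing sign without ret/wt replicate 1 and ret/ret replicate 1. Except where construction shows it, the cause was not tested. Depth limits the 41 low genes, most of them under 1 count on average.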
